A study of Mus musculus with 9 samples.

Results

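The Wnt genes examined here are the 49 genes for Wnt ligands, their receptors, their modulators and their best-known target genes that had a mean normalised count of 20 or more, out of 39184 genes listed in both of the deposited comparisons. They were chosen by name, and 56 such names were listed in both comparisons. The other 7, namely Wnt16, Rspo4, Wnt1, Wnt2, Wnt10b, Wnt9b and Wnt8a, lay below the limit. Just inside it were Sfrp5 with a mean normalised count of 21.5 and Dkk1 with 25.7, and just outside it were Wnt16 with 14.6 and Rspo4 with 9.34. Of all genes in both comparisons, 19292 reached the limit.

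RNA sequencing was done on the cortex of mouse embryos with 3 genotypes at HAR1984, a human accelerated region, that is, a conserved stretch of DNA that changed unusually fast on the human lineage. Control embryos were Mm-HAR1984 (Mm/Mm), with mouse sequence on both alleles. Knock-in embryos were Mm-HAR1984 (Hs/Mm), with 1 human and 1 mouse allele made by CRISPR, and deletion embryos were Mm-HAR1984 (del/del), with both alleles deleted by CRISPR. Each genotype had 3 libraries, called biological replicates in the design, all at E16.5 except deletion replicate 3, whose tissue label gives E16.6. The labels name embryonic cortices as the tissue, neural progenitors as the cell type and 1 batch for all libraries. They do not say whether a library pools embryos, how many founder lines were used or which sex the embryos had. The Y-linked gene Eif2s3y had a log2 fold change of -27.20 in the knock-in (SE 3.91) and of -1.26 in the deletion (SE 3.73). Ddx3y, also Y-linked, had -10.89 in the knock-in (SE 2.68) and -1.38 in the deletion (SE 2.54). In the Wald test described below, their adjusted p were 3.58e-08 and 0.0442 in the knock-in, and 0.983 and 0.960 in the deletion. Both Y-linked genes were thus lower in the knock-in at an adjusted p under 0.05, and neither was in the deletion. The part of embryo sex in the results below was not tested. With no sex given, it cannot be told apart from genotype.

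Wnt proteins are secreted, lipid-modified signals that bind Frizzled receptors together with the co-receptors Lrp5 or Lrp6. In the canonical branch this stabilises beta-catenin, which enters the nucleus with factors of the Tcf and Lef family and switches on target genes, several of which, such as Axin2, feed back to damp the signal. In the embryonic forebrain Wnt signals from the cortical hem pattern the hippocampus and medial cortex, keep progenitors dividing, and, through Wnt7a and Wnt7b made by neural cells, guide the growth of brain vessels.

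No measured value of a single library was available, so whether 1 library decides a result is not known. The columns headed as library values held the mean normalised count times a generated random number in all 478470 of 478470 entries, so the results are differences between groups of 3, each with its standard error (SE). Each log2 fold change is the deposited Wald statistic times its SE. Each p is the 2-sided normal p of that statistic, adjusted by the Benjamini-Hochberg method over all genes that have a deposited adjusted p, and a gene is called at an adjusted p under 0.05. The mean normalised counts of all genes added up to 44.3 × 1e+06, but how deeply any 1 library was sequenced is unknown. Both comparisons use the same 3 control libraries.

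The labelled tissue and cells were present. The cortical markers Neurod6, Tbr1 and Emx1 had mean normalised counts of 35817, 15372 and 2223, and all 8 progenitor markers, among them Pax6, Sox2 and Nes, were above the limit. Markers of vessels, meninges, macrophages, red cells, choroid plexus and ventral forebrain were above it as well, so the RNA came from a mixture of cells. In such bulk tissue, fewer cells of a type and less RNA per cell cannot be told apart.

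Promoters were searched for the letters that Tcf and Lef factors are known to bind. The RefSeq table of build GRCm38.p6 matched 31 of the 49 genes, with 39 windows of 250 bases upstream of a start site. The motifs CTTTGAT and CTTTGTT were searched on both strands, that is, also as ATCAAAG and AACAAAG, and matches on opposite strands may overlap, which none of those printed here do. A match was found in 5 of 39 member windows (12.8%) and in 8.06% of all 32851 windows of that length. The 5 windows belong to Sp5, Dkk1, Fzd7, Wnt11 and Wnt5b, and Sp5 was the one with 2 matches. The windows of Sp5 and Dkk1 are shown because both genes are known targets of beta-catenin and have a match. The targets and readouts Axin2, Lef1, Nkd1, Rnf43, Znrf3 and Notum had no match or were not among the 31 genes searched. The window of Wnt6 is shown because Wnt6 had the smallest p of all members in the deletion. Capitals mark the matches, and each window is read 5′ to 3′ on the strand of the gene.
Sp5, chr2:70474673-70474922, plus strand: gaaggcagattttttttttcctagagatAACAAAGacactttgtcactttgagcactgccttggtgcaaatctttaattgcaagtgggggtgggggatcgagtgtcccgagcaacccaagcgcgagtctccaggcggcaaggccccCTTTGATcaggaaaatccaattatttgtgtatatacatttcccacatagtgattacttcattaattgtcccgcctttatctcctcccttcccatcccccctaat
Dkk1, chr19:30549497-30549746, minus strand: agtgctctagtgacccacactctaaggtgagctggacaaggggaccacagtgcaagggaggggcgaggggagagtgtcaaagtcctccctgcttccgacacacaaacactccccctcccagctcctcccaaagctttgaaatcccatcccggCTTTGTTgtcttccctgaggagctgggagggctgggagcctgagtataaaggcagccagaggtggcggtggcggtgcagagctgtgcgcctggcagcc
Wnt6, chr1:74771642-74771891, plus strand: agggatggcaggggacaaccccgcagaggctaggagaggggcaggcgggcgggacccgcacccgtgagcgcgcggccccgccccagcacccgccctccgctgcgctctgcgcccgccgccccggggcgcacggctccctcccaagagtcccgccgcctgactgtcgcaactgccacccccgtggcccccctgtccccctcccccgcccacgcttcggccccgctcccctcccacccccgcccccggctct

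In Sp5 the matches start 222 and 104 bases before the RefSeq start site, and in Dkk1 98 bases before it. In the GENCODE annotation the minus-strand gene Dkk1 begins at position 30549665. Part of the Dkk1 window, including the match, lies inside the gene by that annotation. The Wnt6 window has no match and is 79.6% G and C, against 46.0% in that of Sp5 and 60.8% in that of Dkk1. Member windows were richer in G and C than the table as a whole, with medians of 65.2% and 52.4%. A match describes the letters and says nothing of whether a factor is bound there.

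Levels per length were available as means over the libraries of all 3 genotypes. These mean normalised counts, per kilobase of exon, were highest for the ligand Wnt7b at 2059, followed by the secreted inhibitor Sfrp1 at 1955. The order turns in the implied control levels per kilobase, where Sfrp1 had 1781 and Wnt7b 1774, and likewise Fzd3 had 814 and Fzd1 745. Among ligands Wnt7a followed at 497 and Wnt5a, best known for beta-catenin-independent signalling, at 308, and Wnt11 was lowest at 7.12. Wnt8b at 210, Wnt2b at 102 and Wnt3a at 69.3 are ligands of the cortical hem. The receptor genes Fzd2 at 887, Fzd1 at 785 and Fzd3 at 773 followed each other closely, and Fzd5 was lowest at 20.4. The co-receptor gene Lrp6 stood at 357 and Lrp5 at 207. R-spondins amplify Wnt signals by binding Lgr receptors and clearing the ubiquitin ligases Znrf3 and Rnf43 from the surface, and here Rspo3 led with 627 while Lgr5 had 5.86. The feedback genes Axin2 at 508 and Nkd1 at 453 were among the higher members. The spread of these levels over libraries is not known, so neighbours in the order cannot be separated. Lgr5 and Wnt11, the lowest by this mean, also trade places in the implied control levels.

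**Figure D1:**
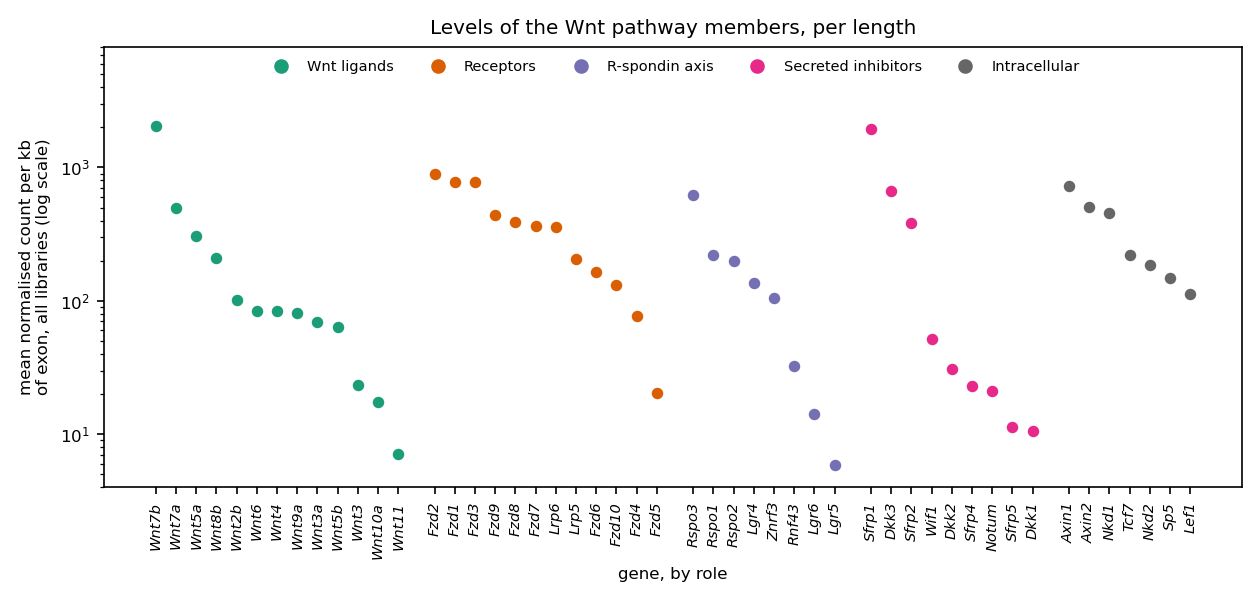
Mean normalised count per kilobase of exon over all libraries (log axis) for each of the 49 genes, grouped by role and ordered within it. Wnt7b (2059) and Sfrp1 (1955) stand above the rest, and Lgr5 (5.86) is lowest.

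The question of the deletion was what happens in the cortex when HAR1984 is absent. No Wnt member passed the threshold: 0 of the 48 members with an adjusted p were called, where 0.976% of all 18952 genes tested were, 0.501% higher and 0.475% lower. Wnt6 and the inhibitor Dkk2 had the highest log2 fold changes, 1.02 and 1.01, and the feedback inhibitor Nkd2 had 0.38. Their intervals lay above 0, but their adjusted p were 0.0776, 0.103 and 0.116. At an unadjusted p under 0.05 there were 7 of 49 members, 6 higher and 1 lower, beside 9.37% of all genes that reached the limit, 5.11% higher and 4.26% lower. Of the members, 31 lay above control and 18 below, with a median of 0.060 beside -0.0060 over all genes, 48.4% of which lay above.

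The question of the knock-in was what 1 human allele does in the same tissue. Again 0 of 49 members were called, where 0.137% of all 21222 genes tested were, 0.0895% higher and 0.0471% lower. Most members had positive values: 40 lay above control and 9 below, with a median of 0.20 beside 0.0062 over all genes, 51.6% of which lay above. At an unadjusted p under 0.05 there were 8 of 49, 6 higher and 2 lower, beside 7.40% of all genes at the limit or above, 3.80% higher and 3.60% lower. Wnt7b had the smallest p, with 0.37 (SE 0.11, adjusted p = 0.198). As the controls are shared, the values of the deletion and the knock-in are given side by side below and are not independent of each other.

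**Figure D2:**
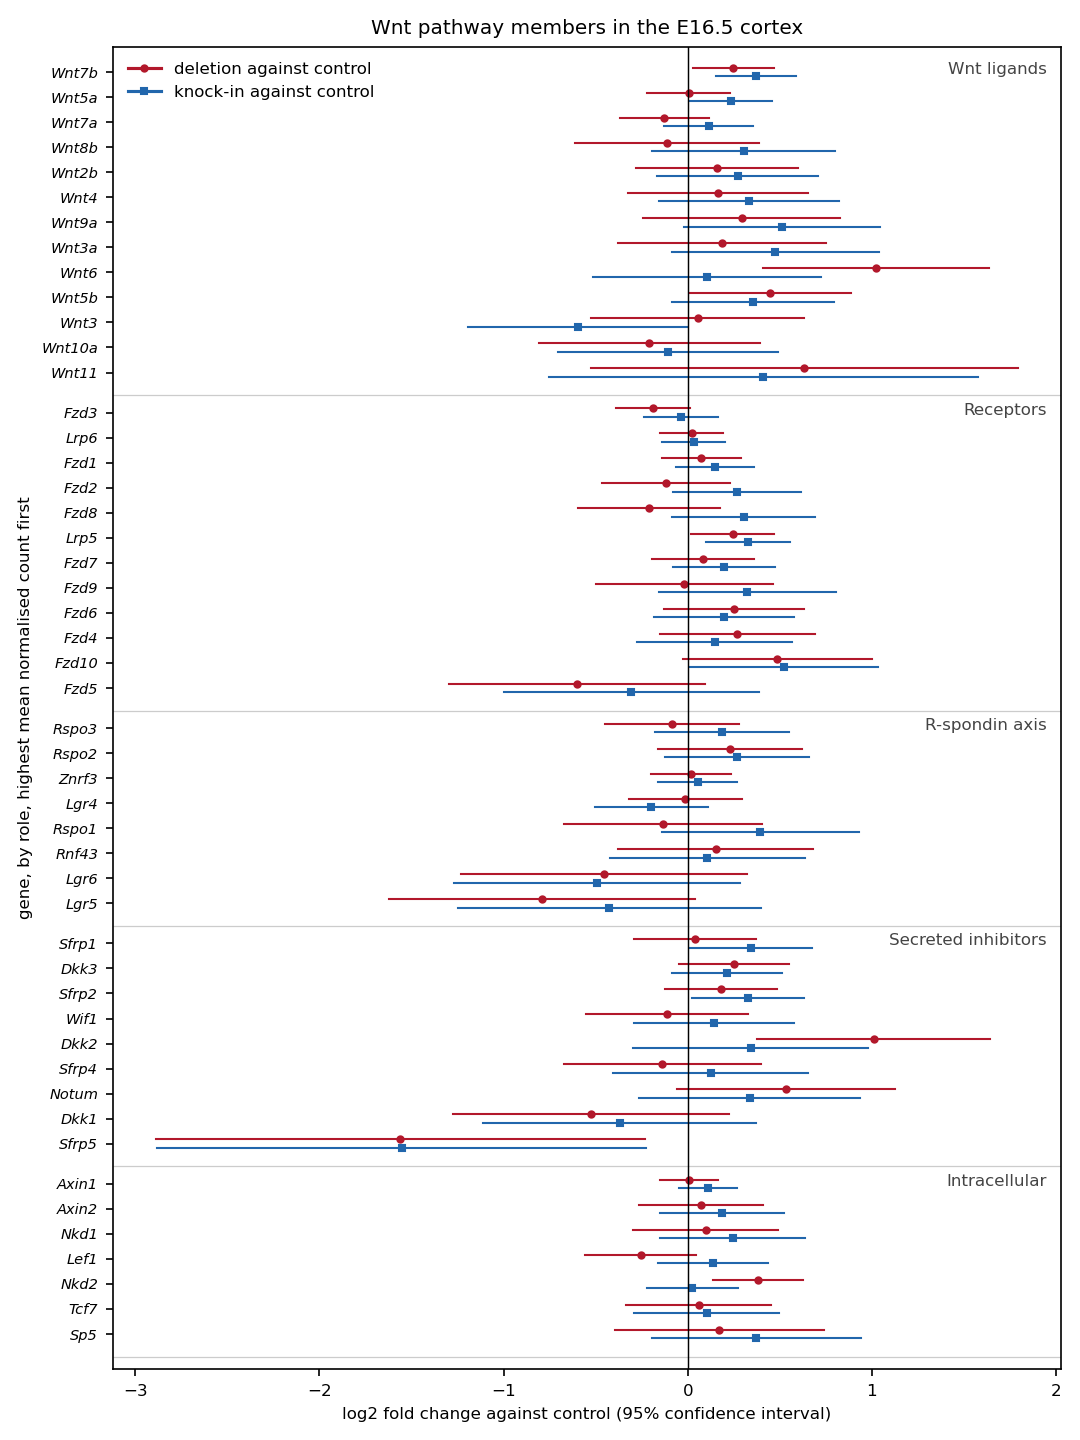
Log2 fold change against control with its 95% confidence interval for each of the 49 genes, by role, in the deletion (circles) and the knock-in (squares). Wnt6 (1.02) and Dkk2 (1.01) lie farthest right in the deletion, Sfrp5 (-1.56 and -1.55) lies farthest left in both, and most knock-in points lie right of 0.

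**Figure D3:**
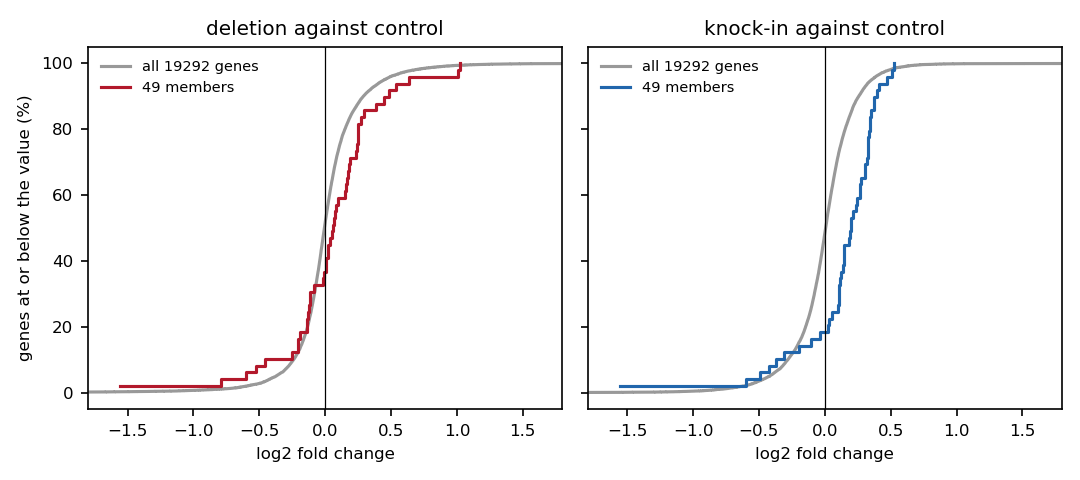
Share of genes (in percent) at or below each log2 fold change, for the 49 Wnt genes and for all 19292 genes at the count limit or above, in the deletion (left) and the knock-in (right). In the knock-in the Wnt curve runs to the right of that of all genes over most of its course (median 0.20 against 0.0062), while in the deletion the medians are 0.060 and -0.0060.

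Of the 13 ligand genes, 10 lay above control in the deletion (median 0.16) and 11 in the knock-in (median 0.30), and none passed the threshold in either. Wnt7b (ENSMUSG00000022382, chr15:85535437-85582473, mm10) was the most abundant ligand and, like Wnt7a, is known to drive brain vessel growth. It had 0.25 in the deletion (SE 0.11, adjusted p = 0.405) and 0.37 in the knock-in. Taken with the mean of all libraries, these fold changes imply about 8689 normalised counts in control, 10322 in deletion embryos and 11243 in the knock-in, if the mean covers all 9 libraries evenly. Wnt6 (ENSMUSG00000033227, chr1:74771892-74785322, mm10) had 1.02 in the deletion (SE 0.31), an implied 134 counts in control and 272 in the deletion. Its knock-in value was 0.10 (SE 0.32), with an implied 144 counts close to the control. Wnt5b, which like Wnt5a is known for beta-catenin-independent signalling, had 0.45 in the deletion (SE 0.22) and 0.35 in the knock-in (SE 0.22). Wnt5a itself had 0.0045 in the deletion (SE 0.11) and 0.24 in the knock-in (SE 0.11).

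Wnt3 was the ligand farthest below control in the knock-in, with -0.60 (SE 0.30, adjusted p = 0.718), while its deletion value was 0.054 (SE 0.29). At the other end of the knock-in values was Wnt9a with 0.51 (SE 0.27), whose deletion value was 0.29 (SE 0.27). Wnt7a, the partner of Wnt7b in vessel growth, had -0.13 in the deletion (SE 0.12) and 0.11 in the knock-in (SE 0.12), so its intervals include 0 in both. Lowest among ligands in the deletion was Wnt10a, with -0.21 (SE 0.31), and it had -0.11 in the knock-in (SE 0.30). The hem ligands Wnt8b, Wnt2b and Wnt3a, chosen for their place of origin after their values were seen, had deletion values of -0.11, 0.16 and 0.19 and knock-in values of 0.30, 0.27 and 0.48.

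Receptor genes had log2 fold changes from -0.60 to 0.49 in the deletion and from -0.31 to 0.52 in the knock-in. Of 12, 7 lay above control in the deletion (median 0.048) and 10 in the knock-in (median 0.20), and 0 were called. The co-receptor gene Lrp5 (ENSMUSG00000024913, chr19:3584828-3686564, mm10) had the smallest p of the receptors in both comparisons, with 0.25 in the deletion (SE 0.12, adjusted p = 0.452) and 0.33 in the knock-in (SE 0.12, adjusted p = 0.369). Its partner Lrp6 had 0.022 (SE 0.087) and 0.032 (SE 0.087), one of the narrowest intervals among the members. Fzd10 was highest of the receptors in both, with 0.49 in deletion embryos and 0.52 in the knock-in (SE 0.26 in each), and Fzd5, a receptor known from the eye field and hypothalamus, was lowest, with -0.60 (SE 0.36) and -0.31 (SE 0.35). Fzd8 and Fzd2, singled out after their values were seen, lay below control in the deletion (-0.21 and -0.12) and above it in the knock-in (0.30 and 0.27), without passing in either.

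In the R-spondin axis 3 of 8 genes lay above control in the deletion (median -0.049) and 5 of 8 in the knock-in (median 0.080), with none called and none at an unadjusted p under 0.05. Rspo2 was highest in the deletion, at 0.23 (SE 0.20), and had 0.27 in the knock-in (SE 0.20). Rspo1 differed in sign, with -0.14 in the deletion (SE 0.27) and 0.39 in the knock-in (SE 0.27). The receptor genes Lgr5, a stem cell marker of the gut, and Lgr6 were the lowest, with -0.79 (SE 0.42) and -0.46 (SE 0.40) in the deletion and -0.43 (SE 0.42) and -0.49 (SE 0.40) in the knock-in. The ligase genes Znrf3 and Rnf43, themselves Wnt targets, had 0.019 and 0.15 in the deletion and 0.054 and 0.11 in the knock-in.

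The 9 secreted inhibitor genes held the widest range. In the deletion 5 lay above control and 4 below, and in the knock-in 7 and 2, and none was called. Dkk2, which blocks Lrp5 and Lrp6 (ENSMUSG00000028031, chr3:132085292-132180304, mm10), had 1.01 in the deletion (SE 0.32) and 0.34 in the knock-in (SE 0.33), with implied normalised counts of 80.4 in control, 162 in deletion embryos and 102 in the knock-in. Sfrp5, a Wnt-binding decoy (ENSMUSG00000018822, chr19:42197971-42202252, mm10), had -1.56 in the deletion (SE 0.68), the 1 member without an adjusted p there, and -1.55 in the knock-in (SE 0.68, adjusted p = 0.604). It is also the member nearest the count limit, with an implied 38.4 counts in control and 13.0 and 13.1 in the deletion and knock-in. The implied levels in the deletion and the knock-in lie below that limit, so Sfrp5 is a member through its control level alone. Its fold changes in the deletion and the knock-in are taken against that same control level. The interval of Sfrp5 in the deletion runs from -2.89 to -0.23. The abundant decoy genes Sfrp1 and Sfrp2 had 0.34 (SE 0.17, adjusted p = 0.696) and 0.33 (SE 0.15, adjusted p = 0.656) in the knock-in. Their deletion values were 0.039 and 0.18. Notum, an enzyme that strips the lipid from Wnt proteins, had 0.53 in the deletion (SE 0.30) and 0.34 in the knock-in (SE 0.31).

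None of the genes that report canonical signalling passed the threshold. Axin2, the most widely used readout, had 0.071 in the deletion (SE 0.17) and 0.19 in the knock-in (SE 0.17), and the interval in the deletion ran from -0.27 to 0.41. Lef1, a nuclear partner of beta-catenin, had -0.25 in the deletion (SE 0.15, adjusted p = 0.653) and 0.14 in the knock-in (SE 0.15). The other readouts were Sp5 with 0.17 (SE 0.29) and 0.37 (SE 0.29), and Nkd1 with 0.098 (SE 0.20) and 0.24 (SE 0.20). Nkd2, an inhibitor that binds Dishevelled (ENSMUSG00000021567, chr13:73818534-73847631, mm10), had 0.38 in the deletion (SE 0.12, adjusted p = 0.116) and 0.025 in the knock-in (SE 0.13). Of the 7 intracellular genes, 6 lay above control in deletion embryos and 7 in the knock-in, with medians of 0.071 and 0.14.

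The precision sets what could have been called. The smallest absolute Wald statistic among called genes was 3.49 in deletion embryos and 3.99 in the knock-in. A member of median SE (0.21 in both comparisons) would have needed a log2 fold change of about 0.75 and 0.86 to pass. For 40 of the 49 members in each comparison the 95% interval lay within -1 and 1, so a 2-fold change of these genes lies outside their intervals. For the others, among them Sfrp5, Wnt11 and Lgr5, it does not.

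The adjusted p in the authors' deposited table is under 0.05 for 3 members in the knock-in, beside 4.71% of all genes at the limit or above: Wnt7b with 1.90e-04, Lrp5 with 3.53e-04 and Sfrp5 with 5.84e-04. The deposited raw p of each is 1000 times smaller than the normal p of its own deposited statistic. For example, the authors' deposited table gives Wnt7b a p of 8.37e-07, where its statistic of 3.34 gives 8.37e-04. The deposited raw p of the other 46 members in the knock-in, and of all 49 in the deletion, equal the p of their statistic within 1e-04 on the log10 scale. Sfrp5 is the 1 member in the authors' short list of 65 knock-in genes, and their list of 59 deletion genes has 0 members. The deposited log2 fold changes of all 49 members equal statistic times SE in both comparisons, within a relative 1e-06.

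The altered genotypes were also compared with each other. The difference of the fold changes passed for 0 of 48 members with an adjusted p (smallest adjusted p = 0.9998), where 0.00528% of 18928 genes were called. Its SE counts the control libraries that cancel in the difference and is therefore large, and just 1.96% of all genes at the limit or above had an unadjusted p under 0.05. Wnt6 (0.92 higher in the deletion than in the knock-in, SE 0.44) and Nkd2 (0.36 higher, SE 0.18) were the 2 members with an unadjusted p under 0.05. With an SE that assumes equal variance in all genotypes, chosen after the data were seen, 9 of 49 members were under 0.05 beside 10.0% of all genes, and 0 were called beside 0.0423%, with Wnt6 smallest (SE 0.32, adjusted p = 0.255). Of the members, 36 were lower in the deletion than in the knock-in and 13 higher, with a median difference of -0.12 beside -0.0077 over all genes.

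Of 76 other genes of the pathway, grouped by textbook role, 72 reached the limit, and in the deletion 0 rose and 1 fell. That 1 of 72 is close to the share over all genes tested, 0.976% of which were called and 0.475% lower. The gene that fell was Sp8, a zinc finger factor related to Sp5 that is also made in interneuron progenitors of the lateral ganglionic eminence, with -0.81 (SE 0.17, adjusted p = 0.00114). The authors' deposited table gives Sp8 a log2 fold change of -1.81, which is not the product of its own statistic and SE. In the knock-in Sp8 had -0.099 (SE 0.17), and 0 of the 72 passed. The 72 genes had medians of 0.011 in deletion embryos and 0.044 in the knock-in, and 11 (15.3%) and 2 (2.78%) of them had an unadjusted p under 0.05, beside 9.37% and 7.40% of all genes at the limit or above. For Sp8 the difference between deletion and knock-in was -0.71 (SE 0.24, adjusted p = 0.9998).

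The remaining genes of these lists with an unadjusted p under 0.01 were all in the deletion. Adgra2 and Reck, which form the receptor complex through which Wnt7a and Wnt7b act on endothelium, had 0.79 (SE 0.23, adjusted p = 0.0641) and 0.46 (SE 0.16, adjusted p = 0.185). Their knock-in values were 0.45 (SE 0.23) and 0.18 (SE 0.16). Ndp, which encodes norrin, a ligand of Fzd4 in vessels, had -0.60 (SE 0.21, adjusted p = 0.175), and Bmp4 had 0.81 (SE 0.30, adjusted p = 0.237). The 18 genes of the beta-catenin destruction complex and its transduction had values from -0.19 to 0.16 in the deletion and from -0.18 to 0.18 in the knock-in, with medians of -0.0029 and -0.040. Ptk7, a planar polarity receptor gene, had 0.32 in the knock-in (SE 0.13, adjusted p = 0.531), while the authors' deposited table gives it an adjusted p of 5.11e-04.

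**Figure D4:**
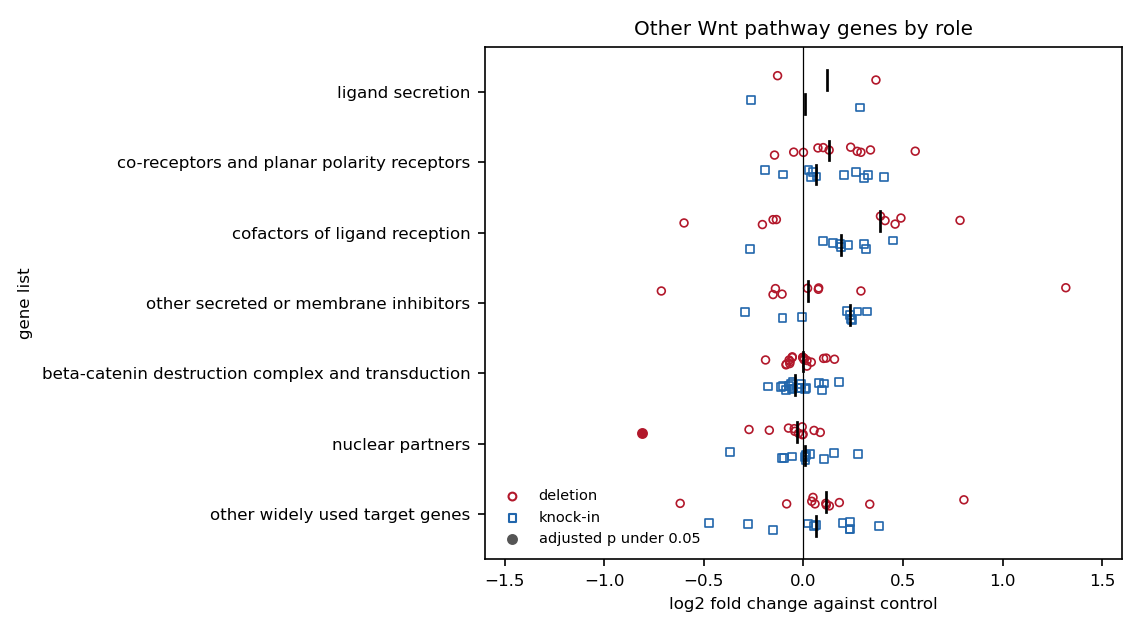
Log2 fold change against control of 72 other Wnt pathway genes by role, in the deletion (circles) and the knock-in (squares), with the median of each list as a black bar. The 1 filled point past the threshold is Sp8 in the deletion (-0.81), and the 18 destruction complex genes lie closest to 0.

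Markers of other cells were compared with control in the same way. In the deletion 11 of 12 meningeal markers lay above control (median 0.92), 6 rose and 1 fell, namely Zic1, a factor also made in the medial forebrain, and their summed implied level was 49349 normalised counts in control, 76622 in deletion embryos and 64646 in the knock-in. All 13 endothelial and pericyte markers lay above control in the deletion (median 0.47, 3 risen) and in the knock-in (median 0.35, 0 risen), with sums of 19237, 27491 and 23869 in control, deletion and knock-in. Among the 8 markers of microglia and macrophages 7 lay above control in each, and 2 rose in the deletion, with sums of 4157, 6907 and 5216. The 12 ventral forebrain markers all lay below control in both comparisons (medians -1.46 and -0.76, with 6 fallen in deletion embryos and 0 in the knock-in), and their sums were 14957, 7117 and 9112. No marker of these lists was at 0. Their part in the values of Wnt6, Dkk2, Adgra2, Reck, Sfrp5, Fzd5 and Sp8 was not tested.

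The medians of the progenitor markers lay on opposite sides of control in the altered genotypes. In the deletion 7 of 8 lay below control (median -0.22) and in the knock-in 8 of 8 above (median 0.22), with 0 called in either. Their median SE was 0.19 in both comparisons. Their sums were 86477 in control, 77441 in deletion embryos and 99170 in the knock-in. Red cell markers split in the same way, with 5 of 6 below control in the deletion and 6 of 6 above it in the knock-in, and 0 called. Choroid plexus markers, 7 in all, had medians of -0.23 and 0.24. The 9 markers of the hem and hippocampal field, 4 of which are members (Rspo1, Rspo2, Wnt2b and Wnt3a), had medians of -0.021 in deletion embryos and 0.27 in the knock-in, the latter being the value of the member Rspo2. Their summed implied levels were 16817 in control, 17251 in deletion embryos and 15854 in the knock-in, so the sum and the median differ in direction in each comparison. The part of these cells in the members' knock-in values was not tested.

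**Figure D5:**
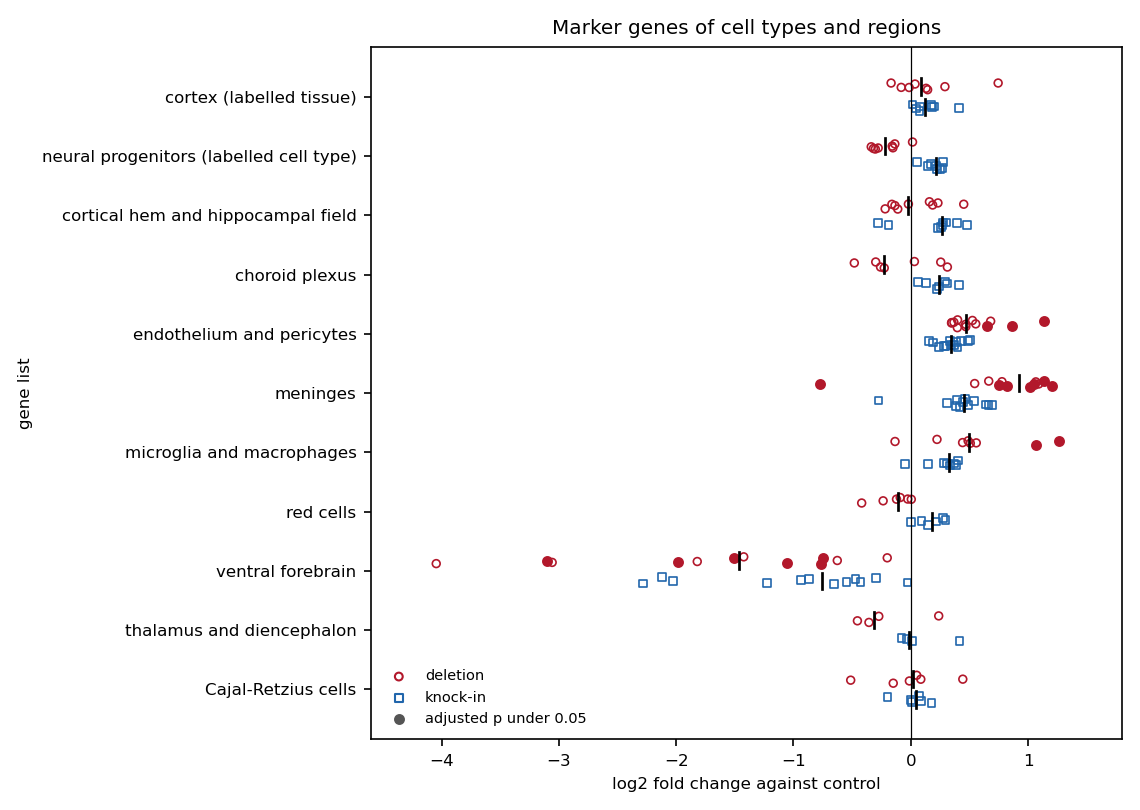
Log2 fold change against control of marker genes of cell types and regions, in the deletion (circles) and the knock-in (squares), with filled points past the threshold and the median of each list as a black bar. Meningeal markers other than Zic1 and all vascular markers lie above control (deletion medians 0.92 and 0.47) and ventral forebrain markers below (-1.46), and the progenitor medians lie on opposite sides of 0 (-0.22 in the deletion, 0.22 in the knock-in).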

How the data were processed

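The authors sequenced 9 libraries, 3 per genotype, made with mRNA capture per the labels' protocols. Named in the submitters' processing notes, without roles, are cutadapt, Bowtie2 2.4.4, STAR 2.7.9a, mm10 and mm9. The sources used here do not give the counting method. Per the file headers and the authors' key to the columns, which names DESeq2, the deposited tables hold log2 fold changes with their SE on the log2 scale, a Wald score, raw and adjusted p-values, and baseMean, a signal that averages the normalised counts of all samples (it was equal in both tables for all 39184 shared genes). The 24 deposited columns headed FPKM hold another unit: all 478470 values equalled baseMean times draws of R's normal generator (mean 1, SD 0.1, seed 42) within 1e-09, and 0 did with seed 43. They were not used.

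From the deposited statistic and SE, fold changes, 2-sided p and Benjamini-Hochberg adjusted p were recomputed over the genes with a deposited adjusted p, since 930 deposited knock-in p and 4 deletion p differed from their statistic. The deletion and knock-in were compared by a Wald test of the difference of fold changes, adding the squares of both SEs. Exon lengths and gene positions came from GENCODE M21 (mm10), and the authors' annotation may differ. Implied group levels assume that baseMean averages the genotypes evenly. Named were members with an unadjusted p under 0.05, the extremes of each role, the feedback targets and the 3 most abundant ligands, and other pathway genes past the threshold or with an unadjusted p under 0.01. The members and lists were chosen with earlier results of these data known. Steps were tested on simulated data. Python 3.11.15, numpy 2.4.6, pandas 2.3.3, scipy 1.17.1, matplotlib 3.10.9 and R 4.3.3 were used. Some cortical markers are not reported here.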

Additional observations from a re-analysis of the deposited data

How the results depend on the processing

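The 8 alternatives were an adjusted p threshold of 0.1 or of 0.01, an added minimum fold of 1.5, adjusting over every gene that has a p, a minimum baseMean of 50 or none, centring on the median of all genes tested, and the authors' deposited values. With a threshold of 0.1, called members in the deletion went from 0 to 1 (Wnt6), and other pathway genes in the deletion, and over both comparisons, from 1 to 2 (Adgra2 joining Sp8). With the authors' deposited values, called members in the knock-in went from 0 to 3 (Wnt7b, Lrp5, Sfrp5), other pathway genes in the knock-in from 0 to 1 (Ptk7), and over both comparisons from 1 to 2. All other counts equalled the main count, which was 0 or 1 throughout. The alternatives leave the fold changes of the members as they are, apart from the shift by centring, and so do not test their direction. The higher baseMean removes Sfrp5, Dkk1, Wnt11 and Wnt10a, and the deposited tables hold no direct comparison of the deletion with the knock-in. The medians used for centring were -0.0062 (deletion) and 0.0039 (knock-in). No paired analysis was possible because no values per library were used. For the same reason leaving out each replicate and another normalization were not run, and whether 1 library decides a value is not known. What depth limits cannot be given, since the depth per library is unknown.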
